A study of Mus musculus with 768 samples.

Results

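Immature Schwann cells (SCs) that expressed Entpd2 strongly were compared with immature SCs in which Entpd2 was barely read or not read at all. The wells were chosen by measured values. A well had to hold at least 1500 detected genes, lie outside the 4 corners of its plate, carry fewer than 3 of 10 cell division genes at 5 or more reads each, and have Ncmap below 10 CPM (counts of a gene scaled to a common total of reads per well). Ncmap encodes a membrane protein of noncompact myelin and rises as SCs begin to myelinate. Of the 768 wells of the series, 228 met these conditions. Wells with Entpd2 at 100 CPM or more are called Entpd2-high here, and wells below 10 CPM Entpd2-low. This gave 150 Entpd2-high and 65 Entpd2-low wells, 215 in all, while 13 wells lay between the limits.

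The cells came from sciatic nerves of C57bl/6J pups at postnatal day 5. The pups carried P0Cre, a Cre recombinase active in the SC lineage, a Rosa26 eYFP reporter that Cre switches on, and a βAct-DsRed transgene. All groups share these alleles, none was treated, and the fluorescence gate admits only cells in whose lineage this Cre was active. Sorting placed 1 eYFP-positive cell in each of the 384 wells of 2 plates, and Smart-Seq2, which reads transcripts over their full length, was used for the libraries. Each plate held the pooled cells of 1 male and 1 female pup and is 1 replicate, so every test below rests on n = 2 plates a side.

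Entpd2 encodes NTPDase2, an enzyme on the cell surface that removes a phosphate from extracellular ATP and leaves ADP, a ligand of P2Y receptors. In peripheral nerve it is known as an enzyme of immature and non-myelinating (Remak) SCs, and myelinating SCs lack it. Immature SCs of this age can still turn towards either fate. Those that enclose a single large axon pass through a pro-myelinating stage marked by Pou3f1, Egr2 and the cell cycle inhibitor Cdkn1c, and those that keep several small axons become Remak cells.

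Entpd2 (ENSMUSG00000015085) lies on the forward strand at chr2:25395874-25401321 (GRCm38). Its last exons overlap exons of Npdc1, for which no test was made. The RefSeq sequences (GRCm38.p6) of the 250 bases before the start site are shown for Entpd2 and for 3 of the genes that differed between the sides. The windows are chr2:25395624-25395873 (forward strand) for Entpd2, chr3:145649986-145650235 (reverse strand) for Ccn1, chr9:45369935-45370184 (forward strand) for Fxyd6 and chr10:76253586-76253835 (forward strand) for S100b. None overlaps an annotated exon. Capitals mark GGAATG on either strand, the core read by TEAD factors, and TGAGTCA on either strand, an AP-1 site. These 2 motifs do not overlap in the windows shown.
Entpd2: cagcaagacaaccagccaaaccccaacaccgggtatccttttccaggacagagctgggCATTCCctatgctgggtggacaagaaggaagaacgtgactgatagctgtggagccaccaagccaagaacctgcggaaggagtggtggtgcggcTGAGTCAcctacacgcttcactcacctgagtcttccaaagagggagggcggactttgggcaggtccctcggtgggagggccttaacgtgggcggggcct
Ccn1: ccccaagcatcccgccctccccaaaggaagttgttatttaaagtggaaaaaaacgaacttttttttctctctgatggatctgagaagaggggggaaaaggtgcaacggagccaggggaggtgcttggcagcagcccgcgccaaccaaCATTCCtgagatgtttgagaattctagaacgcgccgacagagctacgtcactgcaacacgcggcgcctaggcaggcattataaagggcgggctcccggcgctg
Fxyd6: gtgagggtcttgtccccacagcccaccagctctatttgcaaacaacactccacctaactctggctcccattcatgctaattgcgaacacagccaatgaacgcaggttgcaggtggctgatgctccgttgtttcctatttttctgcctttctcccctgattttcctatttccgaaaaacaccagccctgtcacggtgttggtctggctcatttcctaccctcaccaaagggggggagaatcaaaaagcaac
S100b: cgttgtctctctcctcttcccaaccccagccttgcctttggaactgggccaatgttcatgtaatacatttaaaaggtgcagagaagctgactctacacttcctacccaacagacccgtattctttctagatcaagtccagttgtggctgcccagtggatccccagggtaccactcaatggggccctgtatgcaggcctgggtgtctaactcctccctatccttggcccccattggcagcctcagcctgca
The TEAD letters begin 192 bases before the start of Entpd2 and 103 bases before that of Ccn1, on the strand opposite to the gene in both, and the AP-1 letters begin 99 bases before the start of Entpd2. Neither motif is in the Fxyd6 or S100b window. The windows shown do not stand for the direction of change: of the 20 genes named from the fit below, 12 have a window, and the TEAD letters are in 3 of these, the higher genes Id3 and Ccn1 and the lower gene Emid1, and the AP-1 letters in 0. Over all 32851 RefSeq windows of this length, 12.6% hold the TEAD letters and 4.46% the AP-1 letters. Such a match is a description of the letters, and no binding was measured.

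Entpd2 itself split the wells cleanly, as the rule makes it. The median of Entpd2-high wells was 878 CPM in plate 1 (range 201 to 5616) and 897 CPM in plate 2 (105 to 6225). In Entpd2-low wells the median was 0 CPM in both plates, and 32 of 35 and 28 of 30 wells had no Entpd2 read. Near the limits, the lowest Entpd2-high wells had 201 and 251 CPM in plate 1 and 105 and 108 CPM in plate 2. The highest wells below 100 CPM had 39.6 and 99.9 CPM in plate 1 and 93.8 and 95.6 CPM in plate 2, and the lowest wells at or above 10 CPM had 12.3 and 21.3 CPM in plate 1 and 13 and 15.8 CPM in plate 2. The highest Entpd2-low wells had 5.13 and 9.77 CPM in plate 1 and 2.46 and 7.41 CPM in plate 2.

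**Figure D1:**
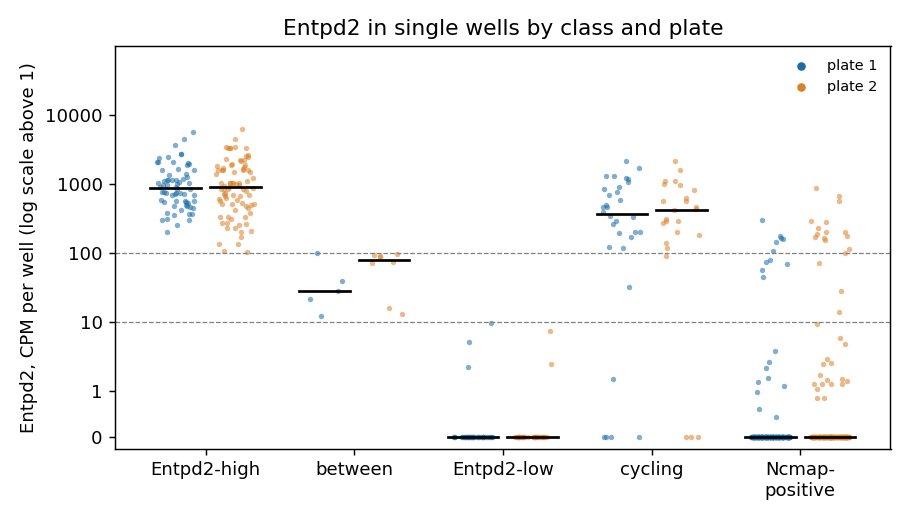
Entpd2 in single wells, in CPM on a scale that is logarithmic above 1, for 5 classes of wells and both plates (blue plate 1, orange plate 2). Bars are medians and dashed lines the limits of 10 and 100 CPM; immature wells fall into a group with medians of 878 and 897 CPM and a group at or near 0, with 13 wells between.

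Entpd2-high wells made up 62.3% of the non-cycling Ncmap-low wells in plate 1 (66 of 106, 95% Clopper-Pearson interval 52.3 to 71.5) and 68.9% in plate 2 (84 of 122, 59.8 to 76.9), a mean of 65.6% ± 4.66 (SD, n = 2 plates). Entpd2-low wells made up 33.0% (35 of 106, 24.2 to 42.8) and 24.6% (30 of 122, 17.2 to 33.2), a mean of 28.8% ± 5.96. The intervals of the plates overlapped for each side. They treat the wells of a plate as independent draws and do not cover the spread between animals. Smart-Seq2 reads carry no molecular identifiers, so limits on reads given here cover counting error only.

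Depth and detection differed between the sides in no constant direction over the plates. Entpd2-high wells had a median of 422427 reads in plate 1 and 442898 in plate 2, and Entpd2-low wells 582032 and 349970 reads. Median detected genes were 2871.5 and 3314 in Entpd2-high wells against 3033 and 3050 in Entpd2-low wells. The mitochondrial share of reads had medians of 2.51% and 2.58% in Entpd2-high wells and of 2.98% in Entpd2-low wells of both plates, and its part in the results was not tested. Summed per plate and side, the 4 sums held 29843936 and 42065024 reads for Entpd2-high and 21457863 and 14582908 for Entpd2-low.

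Both sides carried SC genes. Sox10, the SC transcription factor, had 313 and 315 CPM in the Entpd2-high sums of plates 1 and 2 and 210.0 and 304 CPM in the Entpd2-low sums. Every well of both sides had at least 5 reads in 3 or more of 7 SC markers. For 9 markers of immature SCs the same held in 59 of 66 and 76 of 84 Entpd2-high wells and in 20 of 35 and 19 of 30 Entpd2-low wells. Gfap, on that list, was at 0 in all 4 sums and Gap43 at 0 in both Entpd2-low sums. The wells are therefore called immature by their low Ncmap and not by a full set of immature markers. No well met the lists for fibroblast-like, perineurial, endothelial, immune, pericyte, neuronal, satellite glial or skeletal muscle cells. The 6 endothelial genes were at 0 in all sums. The immune list summed to 7.81 and 27.5 CPM in Entpd2-high and to 0.466 and 0 CPM in Entpd2-low sums, with Ptprc, its defining gene, at 0 throughout. The fibroblast-like list summed to between 648 and 844 CPM, nearly all of it Col1a1, and Pdgfra was at 0. The satellite glia list summed to 171 and 97.8 CPM in Entpd2-high and to 323 and 149 CPM in Entpd2-low sums, most of it Kcnj10. The part of these lists in the results was not tested.

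Few genes separated the sides. Of 13407 genes tested with edgeR's quasi-likelihood test on the sums, 24 passed an adjusted p of 0.05 (Benjamini-Hochberg), which is 0.179% of those tested. Of these, 17 were higher in Entpd2-high sums (0.127%) and 7 were lower (0.0522%). The spread was estimated from 8 sums, which also included cycling and Ncmap-positive wells. The count rested on single sums: it was 2 without the Entpd2-high sum of plate 1, 4 without that of plate 2, 19 without the Entpd2-low sum of plate 1 and 45 without that of plate 2. With each well scaled to the same depth, 1 gene passed, with the 4 sums alone 2 passed, and with cycling wells as the only other group, a fit added after seeing the data, 13 passed. With the cycling and Ncmap-positive sums both replaced by the wells between the limits, 0 genes passed by edgeR, against 427 at an unadjusted p under 0.05. DESeq2 on the 8 sums called 657.

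Of the 24 genes, 13 had a mean of at least 50 CPM over the 4 sums, and all of these changed in the same direction in both plates. Higher in Entpd2-high sums were Id3, Prkcq, Tubb4a, Ccn1, Rarres2 and Sostdc1. Lower were Fxyd6, Slc36a2, Cdkn1c, S100b, Csrp2, Serpine2 and Ndrg1. For each of the 13 the Entpd2-high sums lay wholly above or wholly below the Entpd2-low sums, as they did for 21.9% (higher) and 14.8% (lower) of all genes tested. Leaving out an Entpd2-high sum, Slc36a2 alone of the 13 still passed without plate 1 and Sostdc1 alone without plate 2. Leaving out the Entpd2-low sum of plate 1, Id3, Tubb4a, Fxyd6, Cdkn1c and Ndrg1 passed, and without that of plate 2, Id3, Tubb4a, Sostdc1, Fxyd6, Cdkn1c, S100b and Serpine2 passed. The log2 changes kept their sign in all 4.

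**Figure D2:**
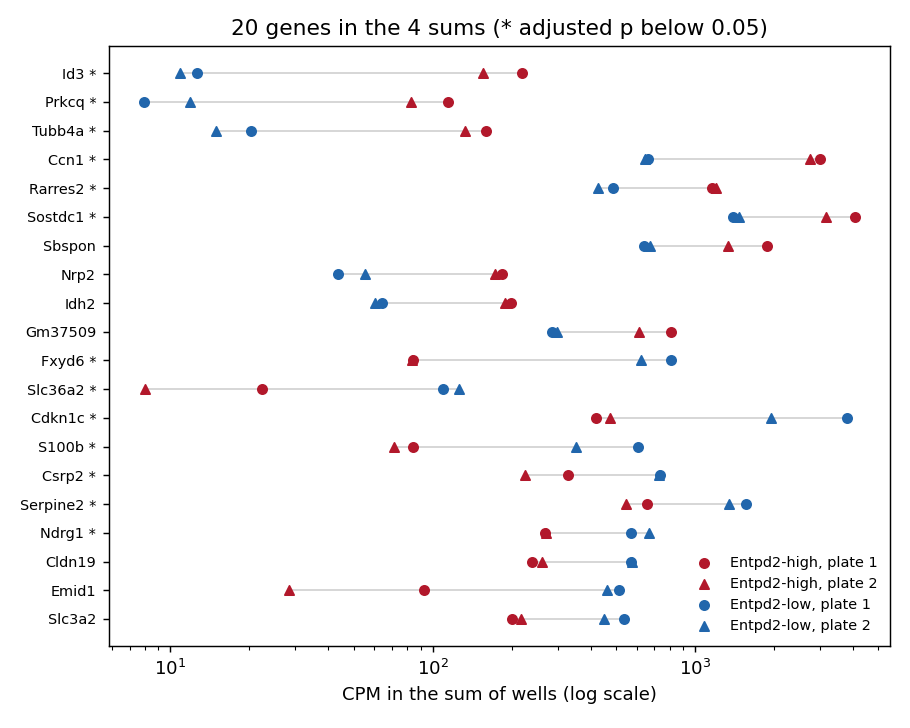
CPM (log axis) of 20 genes in the 4 sums, Entpd2-high in red and Entpd2-low in blue, circles for plate 1 and triangles for plate 2. Genes with a star passed an adjusted p of 0.05, the others fill each direction to 10 by lowest p; in every row the red and blue symbols do not overlap.

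Ccn1 and Sostdc1 were the most strongly read of the genes that rose. Ccn1 (chr3:145646976-145649981, reverse strand) encodes a secreted matrix protein, known as a target of YAP and TEAD, and its start region is printed above. It had 2989.6 and 2743 CPM in the Entpd2-high sums and 659 and 644 CPM in the Entpd2-low sums. The log2 change was 2.13 ± 0.25 (SE, n = 2 plates a side, edgeR adjusted p = 0.0246), and it was 1 of the 2 genes that passed in the fit of the 4 sums alone (edgeR adjusted p = 0.0305). At 5 or more reads it was detected in 69.7% and 69.0% of Entpd2-high wells and in 28.6% and 43.3% of Entpd2-low wells. At a common depth of 100000 reads a read was present in 78.1% and 74.7% against 39.4% and 51.9%. A single well gave 51.1% and 49.9% of the Entpd2-low reads, and without the well with most reads in each sum the levels were 2625 and 2451 against 331 and 332 CPM.

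Sostdc1 (chr12:36314139-36318452) encodes a secreted antagonist of BMP and Wnt signals. Its levels were 4068 and 3164 CPM in Entpd2-high and 1395 and 1475 CPM in Entpd2-low sums, a log2 change of 1.32 ± 0.15 (edgeR adjusted p = 0.0246). Rarres2 (chr6:48569696-48572789, reverse strand) encodes chemerin, a secreted chemoattractant. It had 1165 and 1204 CPM against 488 and 427 CPM, a log2 change of 1.36 ± 0.18 (edgeR adjusted p = 0.0338). Exons of Lrrc61 overlap those of Rarres2, and how reads of the overlap were assigned cannot be told from the counts. Both differences ran through most wells: Sostdc1 was detected in 98.5% and 95.2% of Entpd2-high and 80.0% and 86.7% of Entpd2-low wells, and Rarres2 in 95.5% and 95.2% against 62.9% and 66.7%. The median well had 945 and 1109.7 CPM of Rarres2 on the Entpd2-high side and 258 and 239 CPM on the Entpd2-low side. In a fit that weighs every well equally (limma on mean log2(CPM + 10) over wells, chosen after seeing the data), both passed, with log2 changes of 2.67 for Rarres2 (limma adjusted p = 0.00853) and 1.83 for Sostdc1 (limma adjusted p = 0.0114).

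Id3, Prkcq and Tubb4a had larger fold changes at lower levels. Id3 (chr4:136143497-136145755) encodes an inhibitor of DNA binding that blocks basic helix-loop-helix factors and is a known target of BMP signals. It had 219 and 156 CPM in Entpd2-high and 12.6 and 10.9 CPM in Entpd2-low sums, a log2 change of 3.98 ± 0.39 (edgeR adjusted p = 0.0181). It was detected in 23 of 66 and 20 of 84 Entpd2-high wells and in 2 of 35 and 2 of 30 Entpd2-low wells, and a single well held 93.4% and 68.6% of the Entpd2-low reads. Thinned to 100000 reads, a read was present in 37.5% and 24.1% of Entpd2-high wells against 2 of 33 (6.06%) and 0 of 27 Entpd2-low wells.

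Prkcq (chr2:11172108-11301222), the protein kinase C theta gene, had 114 and 83.0 CPM against 7.97 and 11.9 CPM. Its log2 change was 3.30 ± 0.45 (edgeR adjusted p = 0.0403), and it did not pass with the plate as a block (edgeR adjusted p = 0.0626). A single well gave 47.9% of the Prkcq reads of the Entpd2-high sum of plate 1. Tubb4a (chr17:57080066-57087782, reverse strand), a beta tubulin gene, had 159 and 133 CPM against 20.3 and 14.9 CPM, a log2 change of 3.04 ± 0.36 (edgeR adjusted p = 0.0246). It was detected in 40.9% and 45.2% of Entpd2-high wells and in 17.1% and 16.7% of Entpd2-low wells. None of these 3 genes passed in the fit that weighs wells equally, with limma adjusted p of 0.142 for Id3, 0.111 for Prkcq and 0.0662 for Tubb4a.

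Cdkn1c led the lower genes in level. It encodes p57, an inhibitor of cyclin-dependent kinases that marks pro-myelinating SCs, and lies at chr7:143458339-143461050 on the reverse strand. It had 418 and 475 CPM in Entpd2-high and 3804 and 1943 CPM in Entpd2-low sums, and fell by 2.70 ± 0.34 on the log2 scale (edgeR adjusted p = 0.0333). The median Entpd2-low well had 934 CPM in plate 1 and 666 in plate 2, and the median Entpd2-high well 2.00 and 69.8 CPM. It was detected in 71.4% and 80.0% of Entpd2-low wells and in 36.4% and 52.4% of Entpd2-high wells, and at 100000 reads in 78.8% and 85.2% against 42.2% and 57.8%. Single wells gave 52.0% of the Entpd2-high reads in plate 1 and 46.0% of the Entpd2-low reads in plate 2. Without the well with most reads in each sum the levels were 204 and 337 against 3162 and 1123 CPM.

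Csrp2, Serpine2 and Ndrg1 were likewise lower across many wells. Csrp2 (chr10:110919789-110939622) encodes a LIM domain protein, and had 327 and 224 CPM in Entpd2-high against 732 and 729.8 CPM in Entpd2-low sums. It fell by 1.418 ± 0.19 on the log2 scale (edgeR adjusted p = 0.0401) and was detected in 39.4% and 46.4% of Entpd2-high and 82.9% and 70.0% of Entpd2-low wells. Serpine2 (chr1:79794197-79861180, reverse strand), a secreted protease inhibitor also called protease nexin, had 659 and 548 CPM against 1569.6 and 1348 CPM, and fell by 1.29 ± 0.18 (edgeR adjusted p = 0.0403). Ndrg1 (chr15:66929318-66969640, reverse strand) encodes a protein of SC cytoplasm whose loss causes a demyelinating neuropathy in humans. It had 269 and 270.3 CPM against 569 and 667 CPM and fell by 1.21 ± 0.15 (edgeR adjusted p = 0.0333). With wells weighed equally, Csrp2 and Cdkn1c passed (limma adjusted p of 0.0114 and 0.0370), while Serpine2 (0.0677) and Ndrg1 (0.145) missed the threshold of the limma test.

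Fxyd6, S100b and Slc36a2 differed through fewer wells. Fxyd6 (chr9:45370185-45396159) encodes a regulator of the sodium pump. It had 84.3 and 83.5 CPM in Entpd2-high and 807 and 623 CPM in Entpd2-low sums, and fell by 3.10 ± 0.26 on the log2 scale (edgeR adjusted p = 0.0181). It also passed in the fit of the 4 sums alone (edgeR adjusted p = 0.0359). It was detected in 22.7% and 16.7% of Entpd2-high and in 40.0% and 33.3% of Entpd2-low wells, and 1 well gave 58.2% and 42.2% of the Entpd2-low reads. Without the well with most reads in each sum the levels were 73.3 and 62.0 against 375 and 385 CPM.

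S100b (chr10:76253853-76261159), the calcium-binding protein widely used as an SC marker, had 84.0 and 71.5 CPM against 608 and 353 CPM and fell by 2.64 ± 0.37 on the log2 scale (edgeR adjusted p = 0.0411). It did not pass with the plate as a block (edgeR adjusted p = 0.0626). Its detection did not follow the sums, with 37.9% and 41.7% of Entpd2-high wells and 45.7% and 33.3% of Entpd2-low wells. A single well held 72.7% of the Entpd2-low reads of plate 1 and 47.2% of those of plate 2, and without the well with most reads in each sum the levels were 71.6 and 62.4 against 185 and 199 CPM. Slc36a2 (chr11:55158470-55185077, reverse strand) encodes a proton-coupled transporter of small amino acids. It had 22.3 and 8.04 CPM against 109.7 and 126 CPM and fell by 2.97 ± 0.43 (edgeR adjusted p = 0.0473), with at least 5 reads in 3 and 2 Entpd2-high wells and in 5 and 3 Entpd2-low wells. Weighing wells equally, the limma adjusted p was 0.245 for Fxyd6, 0.764 for S100b and 0.445 for Slc36a2.

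**Figure D3:**
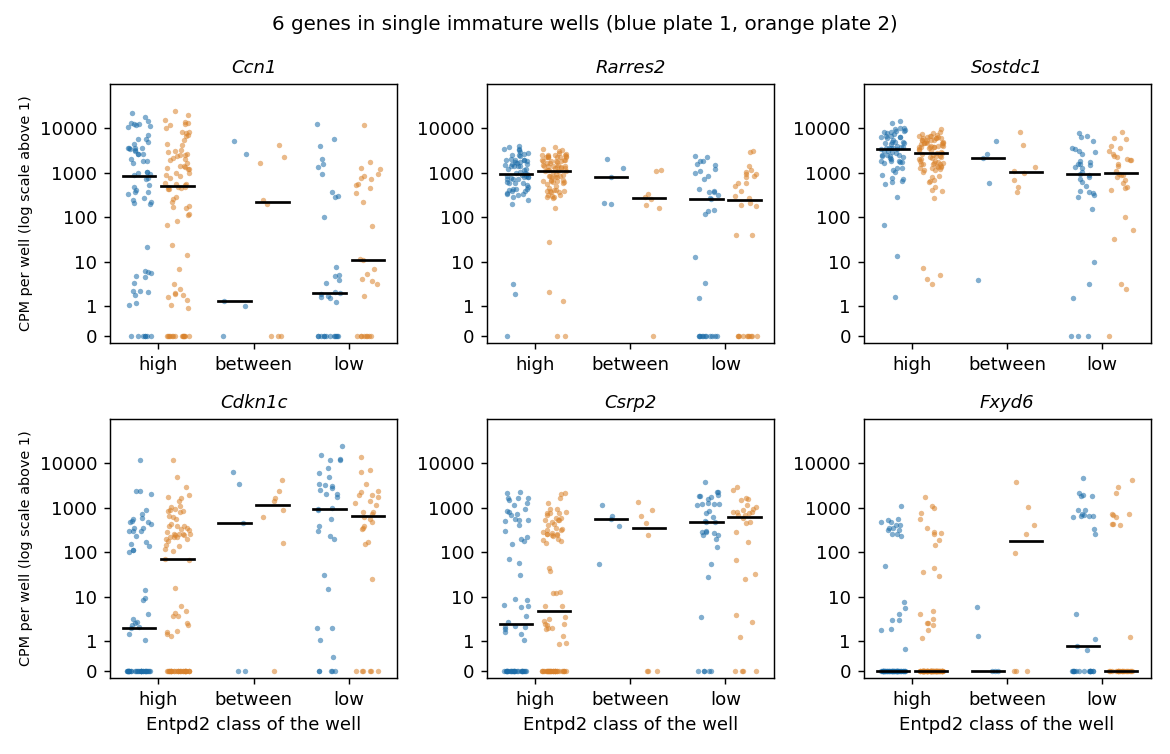
CPM of 6 genes in single immature wells (scale logarithmic above 1) by Entpd2 class, blue for plate 1 and orange for plate 2, with medians as bars. Rarres2 and Sostdc1 shift as a whole, Cdkn1c and Csrp2 have medians under 100 CPM in Entpd2-high and above 400 CPM in Entpd2-low wells, and Fxyd6 is at or near 0 in most wells of both sides.

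Taking the 6 higher and 7 lower genes together, single wells leaned to their side without separating. At 100000 reads an Entpd2-high well held a median of 4 of the 6 higher genes in both plates (range 1 to 6), and an Entpd2-low well a median of 2 (0 to 5). Of the 7 lower genes, Entpd2-high wells held a median of 3 (0 to 7) and Entpd2-low wells a median of 4 (1 to 7). At least 4 of the 7 were present in 26.6% and 42.2% of Entpd2-high and in 75.8% and 81.5% of Entpd2-low wells. Since these genes were selected on the same wells, the counts are a description with no test.

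**Figure D4:**
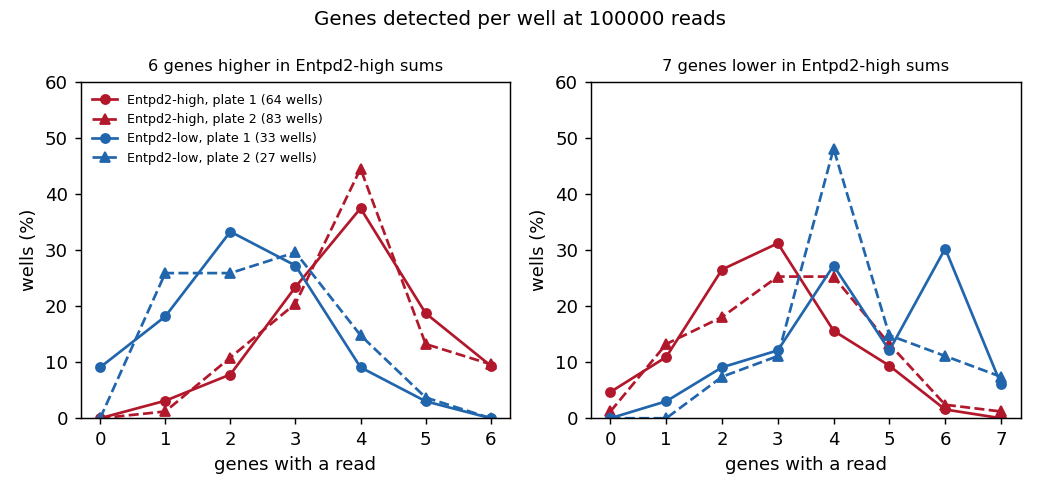
Percent of wells (vertical axis) by the number of called genes with a read at 100000 reads per well, left for the 6 higher and right for the 7 lower genes, solid lines and circles for plate 1, dashed lines and triangles for plate 2. Red lines (Entpd2-high) peak at 4 of 6 on the left and blue lines (Entpd2-low) at 2 or 3, and the lines overlap in both panels.

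Below the threshold but of the same level and direction in both plates, 4 genes were next among the higher and 3 among the lower, and none of the 7 passed. With DESeq2 all 7 passed, in the limma fit that weighs wells equally Sbspon (limma adjusted p = 0.00973) and Gm37509 (0.0114) passed, and with the plate as a block 0 of the 7 did, the lowest edgeR adjusted p being 0.0556. Sbspon, a somatomedin B and thrombospondin domain gene, had 1874 and 1329.9 CPM against 638 and 674 CPM (edgeR adjusted p = 0.0686). Gm37509, an unconfirmed transcript antisense to Sbspon with overlapping exons, had 808 and 611 CPM against 286 and 298 CPM, and reads of the pair cannot be told apart without strand. Nrp2, a semaphorin and VEGF co-receptor, had 184 and 173 CPM against 43.4 and 55.5 CPM (edgeR adjusted p = 0.0686). Idh2, the mitochondrial isocitrate dehydrogenase, had 199 and 188 CPM against 64.4 and 60.4 CPM (edgeR adjusted p = 0.0686). Among the lower ones, Cldn19, a tight junction claudin of myelinating SCs, had 239.7 and 261 CPM against 569.9 and 573 CPM (edgeR adjusted p = 0.0670). Emid1, a secreted EMI domain gene, had 92.9 and 28.3 CPM against 512 and 460.1 CPM (edgeR adjusted p = 0.0686). Slc3a2, the heavy chain of amino acid transporters, had 201 and 216 CPM against 534 and 448 CPM (edgeR adjusted p = 0.0760).

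The other 11 genes that passed were all higher in Entpd2-high sums, with a mean below 50 CPM, and those given here were named after their values were seen. Apart from Sfrp5, they had too few reads in the Entpd2-low sums to pass the filter on low counts there. The Entpd2-low side also holds fewer wells (65 against 150) and fewer reads, so a gene read in few wells can be missed on it. The part of this in their shared direction was not tested. Sfrp5, a secreted Wnt antagonist, had 77.5 and 78.1 CPM against 7.22 and 8.37 CPM (edgeR adjusted p = 0.0246) and was detected in 16 and 25 Entpd2-high and 2 and 4 Entpd2-low wells. Haus4, a subunit of the augmin complex of the spindle, had 26 and 38.5 CPM against no read in either Entpd2-low sum. The limit of 3 reads per sum would be 0.140 CPM in plate 1 and 0.206 CPM in plate 2. That limit counts reads and not wells, so no fold change is drawn from it. The gene passed at an edgeR adjusted p of 0.0246. Haus4 was detected in only 7 of 66 and 13 of 84 Entpd2-high wells, and 1 well gave 33.6% and 18.7% of the Entpd2-high reads. It missed the threshold with wells weighed equally (limma adjusted p = 0.253). In cycling wells it had 148 and 156 CPM. Hltf, a DNA damage tolerance factor, had 49.5 and 30.2 CPM against 2 and 4 reads in the Entpd2-low sums (edgeR adjusted p = 0.0403, and 0.0684 with the plate as a block).

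Of the others, Prc1, Cdkn3, Psrc1, Fbxo5 and Sapcd2 are genes of cell division, Nup37 encodes a nuclear pore subunit and Mns1 a protein of cilia. In the Entpd2-low sums each had 0 to 2 reads. In Entpd2-high sums they lay between 2.38 and 23 CPM and were detected in at most 7 wells a plate. A single Entpd2-high well held 99.0% of the Prc1 reads and all Sapcd2 reads of plate 1. In plate 2 a single one held 97.2% of the Cdkn3 reads and all Fbxo5 reads. In cycling wells Prc1 had 159.9 and 185 CPM and Fbxo5 179.8 and 243 CPM. The rule for the wells used 10 genes of the same process. Together these had 96.7 and 51.5 CPM in Entpd2-high and 72.7 and 75.0 CPM in Entpd2-low sums, which overlap. Of the Entpd2-high wells, 22 of 66 and 25 of 84 still had at least 5 reads of 1 or 2 of the 10. Of the Entpd2-low wells, 10 of 35 and 13 of 30 did. Leaving all such wells out, 6 genes passed, among them Ccn1, Sostdc1, Tubb4a and Fxyd6 of the 24. With the plate as a block, the edgeR adjusted p was 0.0684 for Nup37, 0.0626 for Cdkn3 and 0.0603 for Psrc1.

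Other enzymes and receptors of the purinergic pathway did not separate the sides. Of 28 genes on this list 18 passed the filter on low counts, and 0 were called by edgeR. Their median log2 change was 0.42, beside 0.02 over all genes tested, and over the 9 members of at least 10 CPM it was -0.03. The change was above 0 for 11 of the 18, beside 51.0% of all genes tested. At an unadjusted p under 0.05 edgeR gave 1 higher and 0 lower, beside 6.24% and 3.65% of all genes. P2rx7, an ATP-gated channel, had 94.4 and 98.9 CPM in Entpd2-high against 122 and 125 CPM in Entpd2-low sums (edgeR adjusted p = 0.770). P2rx4, a related channel, had 106 and 84.1 CPM against 42.6 and 88.0 CPM, and adenosine kinase (Adk) 36.4 and 105 CPM against 68.3 and 74.5 CPM, so that the sums overlapped for both. The equilibrative adenosine transporter Slc29a1 had 16.5 and 17.4 CPM against 3.77 and 0 CPM (edgeR adjusted p = 0.498). Entpd4, Panx1, Ak1, Entpd6, P2ry12, Enpp1, Alpl, Entpd5, P2ry2, P2ry1, Enpp3, P2ry14, Enpp2 and Ada had means of at most 22.1 CPM and adjusted p of at least 0.505. The related surface enzymes Entpd1, Entpd3 and Nt5e did not pass the filter.

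Remak genes leaned to the Entpd2-high side without passing. This list holds genes of non-myelinating SCs and genes that led immature-like cells in earlier results of these data, so its direction is not independent evidence. Of 14 genes 12 were tested, 0 were called, and the median log2 change was 1.06. At an unadjusted edgeR p under 0.05, 5 were higher and 0 lower, beside 6.24% and 3.65% of all genes. Scn7a, a sodium channel gene of Remak cells, had 154 and 217 CPM against 10.3 and 33.4 CPM (edgeR adjusted p = 0.488). Abca8a, a lipid transporter, had 420.2 and 275 CPM against 76.6 and 111 CPM (edgeR adjusted p = 0.467). Mmd2 had 111 and 154 CPM against 27.1 and 45.9 CPM (edgeR adjusted p = 0.415), and Pdlim4, a LIM domain gene, 237 and 170.4 CPM against 74.4 and 83.7 CPM (edgeR adjusted p = 0.501). Gfra3, the artemin receptor, had 14.5 and 13.6 CPM against 1 read in both Entpd2-low sums together (edgeR adjusted p = 0.269). Gfra3 had at least 5 reads in only 3 and 3 Entpd2-high wells, and 1 well gave 67.2% and 49.2% of the Entpd2-high reads. For each of these 5 genes the sums of the sides did not overlap, and over the 12 tested members this held for 7 higher and 1 lower, beside 21.9% and 14.8% of all genes. Rxrg, a retinoid receptor, had 214 and 209 CPM against 129 and 62.5 CPM. Apoe, Cdh19, Chl1, Grik3 and Cadm2 had unadjusted p of at least 0.159, and Apoe, a lipid carrier, had 3312 and 2719 CPM against 4048 and 2563 CPM.

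Genes of immature SCs held no called member either. Of 12 genes 11 were tested and 0 called, with a median log2 change of 0.66 (0.21 over the 9 members of at least 10 CPM). At an unadjusted edgeR p under 0.05, 4 were higher and 0 lower, beside 6.24% and 3.65% of all genes. Ngfr, the p75 neurotrophin receptor, had 121 and 72.5 CPM in Entpd2-high against 25.3 and 17.1 CPM in Entpd2-low sums (edgeR adjusted p = 0.562). The adhesion molecule Ncam1 had 615 and 542 CPM against 424 and 302 CPM (edgeR adjusted p = 0.498), and L1cam 47.7 and 59.5 CPM against 23.5 and 20.2 CPM (edgeR adjusted p = 0.734). Tnc, the matrix protein tenascin C, had 27.8 and 13.8 CPM against 0.280 and 0 CPM (edgeR adjusted p = 0.119). Cdh2 and Gap43, for N-cadherin and a growth cone protein, were higher at an unadjusted p under 0.05 at means under 10 CPM. Jun, Id2, Id4 and Sox2, regulators of transcription, and Cadm1, an adhesion molecule, had unadjusted edgeR p of at least 0.331. Id2 had 1197 and 1351 CPM against 1255 and 1298 CPM, Jun 1055 and 1247 CPM against 667 and 1341 CPM, and Cadm1 606 and 736 CPM against 487 and 662 CPM, and the sums overlapped for these 3.

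Most myelin and pro-myelinating genes had lower fitted levels on the Entpd2-high side, while low Ncmap had been required of both sides. All 20 genes of the list were tested. The median log2 change was -0.34, and -0.36 with the 2 genes that had no read on a side taken at their bound. Over the 18 members of at least 10 CPM it was -0.48. The change was above 0 for 6 of the 20, beside 51.0% of all genes tested. Only Cdkn1c was called. At an unadjusted edgeR p under 0.05, with Cdkn1c counted, 6 were lower and 2 higher, beside 3.65% and 6.24% of all genes. Mbp, for myelin basic protein, had 4663 and 4485 CPM against 4939 and 4981 CPM, and Pmp22 2491 and 2454 CPM against 1945 and 2852 CPM. Cnp, for a myelin phosphodiesterase, had 2655 and 2163 CPM against 2457 and 2313 CPM. These 3 were the most strongly read of those named here, and the next 4 were named after their values were seen. The transcription factor Pou3f1 had 76.1 and 106 CPM against 161 and 286 CPM (edgeR adjusted p = 0.437), and Pmp2, a fatty acid binding protein of myelin, 17.7 and 12 CPM against 36.3 and 58.4 CPM (edgeR adjusted p = 0.0954). Pmp2 had at least 5 reads in only 2 and 4 Entpd2-high wells and in 3 and 3 Entpd2-low wells. Mal, a membrane proteolipid, went the other way with 1835 and 1704 CPM against 1048 and 1123 CPM (edgeR adjusted p = 0.140). Egr2, which drives myelination, had 88.1 and 90.1 CPM against 119 and 157 CPM (edgeR adjusted p = 0.514).

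**Figure D5:**
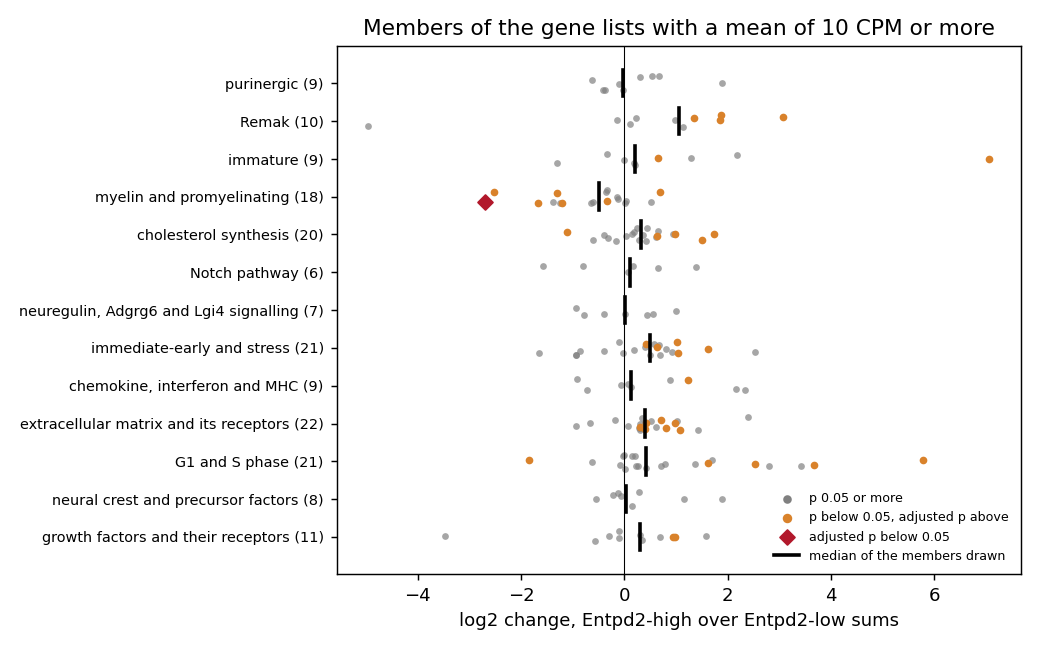
Log2 change of Entpd2-high over Entpd2-low sums for members of 13 gene lists with a mean of at least 10 CPM, grey for p of 0.05 or more, orange for unadjusted p below 0.05, red for the called gene Cdkn1c, black bars for list medians (number of genes in parentheses). Most points lie within 2 log2 units of 0, and the Remak list has the highest median at 1.06.

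The 9 other lists held no called gene. Their counts stand beside shares over all genes tested, of which 51.0% had a log2 change above 0. At an unadjusted edgeR p under 0.05, 6.24% of all genes were higher and 3.65% lower. For the extracellular matrix and its receptors 25 of 26 genes were tested, with a median of 0.41, 22 above 0 and 8 higher and 0 lower at an unadjusted edgeR p under 0.05. Sparc, a matrix glycoprotein, had 16512 and 17172 CPM in Entpd2-high against 11858 and 13211 CPM in Entpd2-low sums (edgeR adjusted p = 0.215). The fibrillar collagen genes Col1a2 and Col3a1 came next in level. Col1a2 had 2323 and 1966 CPM against 1676 and 1762 CPM (edgeR adjusted p = 0.498). Col3a1 had 1889 and 1949 CPM against 889 and 1457 CPM (edgeR adjusted p = 0.451). For immediate-early and stress genes all 22 were tested, with a median of 0.46 (0.50 with a gene lacking reads on a side at its bound) and 5 higher and 0 lower at p under 0.05. Fos had 7692 and 7814 CPM against 6243 and 5203 CPM (edgeR adjusted p = 0.498), and Nr4a1, also induced by brief stimuli, 1385 and 1559 CPM against 1045 and 828 CPM (edgeR adjusted p = 0.335).

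Of the genes of G1 and S phase all 24 were tested, with a median of 0.35 and 4 higher and 1 lower at an unadjusted edgeR p under 0.05. Ccnd1, for cyclin D1, had 833 and 969 CPM against 859 and 659.9 CPM, and Cdk4, its kinase, 831 and 779 CPM against 686 and 938 CPM, and the sums of the sides overlapped for both. Cdk6, a related kinase, had 588 and 554 CPM against 243 and 447 CPM. The 1 lower gene was the inhibitor Cdkn1a with 92.6 and 126 CPM against 434 and 348 CPM (edgeR adjusted p = 0.101). Cholesterol synthesis had a median of 0.32 over 20 genes, 4 higher and 1 lower at p under 0.05, with Fdps at 260.0 and 378 CPM against 307 and 262 CPM and Msmo1 at 204 and 200.5 CPM against 223 and 129 CPM.

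The chemokine, interferon and MHC list had 13 of 18 genes tested, a median of 1.03 and 2 higher and 0 lower at an unadjusted edgeR p under 0.05. With the 2 genes that lacked reads on a side taken at their bound, the median was 0.96, and over the 9 members of at least 10 CPM it was 0.12. B2m, of MHC class I, had 1578 and 1617 CPM against 1083 and 1831 CPM, and Irf1, an interferon-responsive factor, 412 and 444 CPM against 267 and 91.5 CPM (edgeR adjusted p = 0.492). Growth factors and their receptors had a median of 0.32 over 16 of 25 genes with 2 higher and 0 lower at p under 0.05. Ptn, for pleiotrophin, had 349 and 456 CPM against 185 and 230.0 CPM (edgeR adjusted p = 0.292), and Dhh, the hedgehog ligand of SCs, 154 and 222 CPM against 276 and 182 CPM.

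The lists for Notch (7 of 12 tested, median 0.12), neuregulin, Adgrg6 and Lgi4 signalling (8 of 10, median 0.23) and neural crest and precursor factors (12 of 14, median 0.04) had 0 genes with an unadjusted edgeR p under 0.05. Notch1 had 159 and 259.9 CPM against 178 and 219 CPM, Erbb3, a neuregulin receptor, 138 and 170.2 CPM against 198 and 202 CPM, and Ednrb, the endothelin B receptor, 3155 and 2470.5 CPM against 3192 and 2658 CPM.

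Levels of the 13 genes were read in wells on neither side of the comparison, as values with no test. The cycling and Ncmap-positive wells among them had entered the estimate of the spread in the fit that selected these genes. The 13 wells between the Entpd2 limits held 5 wells and 2646433 reads in plate 1 and 8 wells and 3291993 reads in plate 2. Sostdc1 had 1168 and 1569.6 CPM there, Rarres2 815 and 457 CPM, and Cdkn1c 3339 and 1005 CPM. With the plates pooled, 3 of the 6 higher and 4 of the 7 lower genes lay within the range of the 4 sums.

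Cycling wells were mostly Entpd2-high, with 26 of 32 wells in plate 1 and 21 of 25 in plate 2 at 100 CPM or more, and 5 and 3 wells below 10 CPM. As whole sums they lay on the Entpd2-high side of both Entpd2-low sums for all 13 genes. Sostdc1 had 2876 and 2798 CPM and Cdkn1c 251 and 208 CPM in them. Split at the same Entpd2 limits, all 6 higher genes were higher on the Entpd2-high side of cycling wells in both plates. For Prkcq the sides were nearly level in plate 2, with 79.4 against 78.4 CPM. Ccn1 had 1752 and 2379 CPM against 159.6 and 159 CPM in these cycling wells. Of the 7 lower genes, Cdkn1c, Csrp2 and Serpine2 were lower on the Entpd2-high side in both plates, with 187 and 111 CPM of Cdkn1c against 615 and 1090 CPM. S100b was higher in both plates and the other 3 differed in direction between plates.

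Among Ncmap-positive wells only 6 of 187 and 14 of 183 had Entpd2 at 100 CPM or more, and 176 and 165 were below 10 CPM. As whole sums these wells had higher levels than both Entpd2-low sums for Fxyd6 (2208 and 2095 CPM), Slc36a2 (1045 and 934 CPM), Csrp2 (2449 and 2384 CPM) and Ndrg1 (1230.4 and 1309.7 CPM). For Cdkn1c (1055 and 681 CPM) and Serpine2 (1117 and 916 CPM) they lay below both Entpd2-low sums and above both Entpd2-high sums, and S100b (397 and 461 CPM) lay within the range of the Entpd2-low sums. Of the higher genes, Rarres2 (68.3 and 53.9 CPM) and Sostdc1 (383 and 346 CPM) were below both Entpd2-low sums. Id3 (27.0 and 34.9 CPM), Prkcq (45.9 and 36.1 CPM) and Tubb4a (92.3 and 72.8 CPM) were above both Entpd2-low and below both Entpd2-high sums. Ccn1 was above both Entpd2-low sums in plate 1 (704 CPM) and below both in plate 2 (454 CPM). Split at the Entpd2 limits, Rarres2 was higher on the Entpd2-high side in both plates, with 210.3 and 189 CPM against 65.3 and 44.3 CPM, and Id3, Tubb4a, Ccn1 and Sostdc1 were lower in both. Of the lower genes, Slc36a2, S100b, Csrp2 and Ndrg1 were lower in both plates and the other 3 differed in direction between plates. For Ndrg1 the sides were nearly level in plate 1, with 1198 against 1230 CPM.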

How the data were processed

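The authors deposited whole-number counts of reads, 1 row a gene and 1 column a well, for 768 wells. The authors aligned Smart-Seq2 reads with STAR (2.6.1c in the submitters' processing notes, which name GRCm38.p5) and counted them per Ensembl gene with featureCounts. Symbols and positions are from GENCODE vM21. No doublet caller was run.

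Reads were summed per plate and class of well: Entpd2-high, Entpd2-low, cycling and Ncmap-positive, 8 sums in all. The sums entered the quasi-likelihood test of edgeR 4.0.16 (R 4.3.3, TMM scaling, filterByExpr), with Benjamini-Hochberg adjustment over 13407 genes. The residual degrees of freedom were 4 and the common dispersion 0.808. Entpd2, Npdc1, Ncmap and the 10 cell division genes were not tested. The script was tested on simulated data. SE is that implied by the quasi-likelihood F.

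The classes, gene lists and tests were chosen with earlier results of these data known. Named were the 10 genes a direction with the largest change that passed 0.05 at a mean of 50 CPM or more and the same sign in both plates, filled by lowest p, all tested genes of the purinergic, Remak and immature lists, and those of highest mean in other lists. Cells on a plate share their pool of pups, so plate numbers pair the sums. Deviations of same-plate sums from class means correlated at r = 0.0999 between the sides (2091 genes). Alternatives were DESeq2 1.42.0, limma 3.58.1, other scalings, filters, limits, depths and sets of sums, a plate block, and leaving out each sum. Some genes of the lists and of those that passed are not reported here.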

Additional observations from a re-analysis of the deposited data

Results flagged for a closer look

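For 7 genes the change from Entpd2-low to Entpd2-high went in opposite directions in immature wells and in another class of wells, in both plates. The difference between the classes was not tested, and the values are log2 ratios within a plate with 0.5 CPM added to both sides.

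S100b was lower on the Entpd2-high side of immature wells (-2.85 in plate 1 and -2.29 in plate 2) and higher in cycling wells (1.16 and 1.38), where the Entpd2-low side holds 5 and 3 wells. The other 6 were higher on the Entpd2-high side of immature wells and lower in Ncmap-positive wells, where the Entpd2-high side holds 6 and 14 wells. Id3 had ratios of -5.83 and -6.05 there. These come from 0 reads in the Entpd2-high wells, where 3 reads would be 0.974 and 0.354 CPM, against 28.0 and 32.7 CPM in the Entpd2-low wells. Tubb4a had ratios of -3.31 and -0.17, Ccn1 of -0.73 and -1.65, and Sostdc1 of -0.26 and -0.60. Sbspon, which did not pass in immature wells, had -1.27 and -0.14, and Gm37509, which overlaps it, -1.42 and -0.29.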

How the results depend on the processing

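Against 24 genes that passed in the 8 sums, the count was 657 with DESeq2, 228 with no filter on low counts (all 24 remained in both), 15 at a minimum of 2500 genes a well, 6 without wells holding any cell division gene, 2 with the 4 sums alone, 1 with wells scaled to the same depth and 0 with the 3 immature groups only, where 427 genes had an unadjusted p under 0.05. Chosen after seeing the data, it was 13 without the Ncmap-positive sums and 11 with limma over wells. Leaving out 1 sum gave 2 to 45. The other 8 alternatives gave 18 to 30, among them 18 with the replicate block, all of them among the 24. Besides the 6 genes whose blocked p is given in the report, the block changed no call of a named gene. The cause of these differences was not tested. Over 21 alternatives, no gene of at least 50 CPM named from the fit changed sign. Of the 273 values of the 13 that passed, 123 missed the threshold, and of the 147 values of the 7 named genes of this level that did not pass, 25 passed. Psrc1 had a log2 change of -3.87 without wells holding any cell division gene, and Fbxo5 one of -0.74 with wells scaled to the same depth. The Entpd2-high and Entpd2-low shares moved by less than the spread between plates under 3 alternatives, while the share between the limits went from 5.64% ± 1.30 to 4.06% with limits of 50 and 5 CPM. The plates are 2, so the spread of each side rests on 1 degree of freedom of its own.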
